A study of Homo sapiens with 17 samples.

Results

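The genes described here are the human ZNF genes that lie outside chromosome 19, the zinc finger genes named with ZNF and a number alone. They were taken as protein-coding genes on any autosome other than 19 with at least 10 counts summed over the DMSO libraries, which gave 196 of the 19141 genes in the count table. A further 28 genes fitted the name and position but fell under the minimum, 15 of them without a single DMSO count. The members nearest the minimum were ZNF287 and ZNF454 with 10 counts, ZNF396 with 11 and ZNF750 with 12, and the nearest genes left out were ZNF732 with 7, ZNF365 with 6, ZNF141 with 5 and ZNF521 with 4. The RNA came from YB5 cells, a derivative of the SW48 human colon cancer line that carries a silenced CMV promoter driving GFP at a single insertion. Cells received 250 nM toyocamycin, an adenosine analog, or the solvent DMSO. RNA was collected at 2 h (2 libraries per arm), 10 h (1 DMSO and 2 toyocamycin), 24 h and 48 h (1 per arm each) and a last time that the labels give as 72 h and the study as 96 h (3 per arm), called 72 h below. All groups share the one cell line, so p-values measure the spread between cultures of YB5 cells only.

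Most C2H2 zinc finger proteins bind DNA through an array of small zinc-coordinating modules, the fingers, and many carry a second domain that decides what the protein does once bound. The KRAB domain recruits the corepressor TRIM28 (KAP1), which brings in the histone methyltransferase SETDB1 and heterochromatin proteins, and KRAB zinc finger genes are best known for silencing transposable elements. The SCAN domain lets such proteins pair with each other. Chromosome 19 holds the large tandem clusters of KRAB genes, while the ZNF genes elsewhere are a more mixed group that also includes proteins acting on RNA, ribosomes and the mitotic spindle.

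A pattern search in translated reference transcripts found a KRAB domain alone in 77 of the 196 members, a SCAN domain alone in 9, both in 9 and neither in 101. They had a median of 9 fingers (range 0 to 36). A domain that departs from the pattern or lies in another transcript would be missed, so the domain classes below are those of this search. By comparison, 102 of the 129 ZNF genes that met the same minimum on chromosome 19 carried KRAB, with a median of 12 fingers. The members were spread over 19 chromosomes, with 29 on chromosome 16, 27 on chromosome 7, 18 on chromosome 1 and 15 each on chromosomes 3 and 8. The median DMSO level per length was 10.6 TPM (transcript level per length, scaled to the library, computed from the counts and the summed exon length), beside 15.9 TPM over 14462 genes tested at 2 h, 16 members were under 1 TPM, and the range ran from 0.0352 to 299.6 TPM. ZNF703, a corepressor of the NET family known from its amplification in breast cancer, was the highest at 299.6 ± 71.6 TPM (SD, n = 8 DMSO libraries of all times). It was followed by ZNF282 at 150.0 ± 29.3, ZNF768 at 141 ± 24.4, ZNF664 at 138 ± 41.7 and ZNF316 at 129 ± 29 TPM, and these 4 lie within 1 SD of one another.

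RefSeq promoter sequences (GRCh38.p14) were available for 162 of the 196 members. In the 250 bases before the start, their median GC content was 63.6% with a median of 19 CG dinucleotides, close to the 64.4% and 20 of all 11589 genes tested at 2 h that had such a sequence. The ETS-type heptamer CCGGAAG, read on both strands, was present in 32.7% of the members (53 of 162) and in 14.3% of those 11589 genes. CCAAT was present in 43.8% and 34.7%, GGGCGG in 62.3% and 64.9%, and TATAAA in 4.32% and 6.34%. Within the members the share with CCGGAAG was 33.8% among those lower at 2 h and 31.9% among the others, and 32.7% among those higher at 72 h and 33.3% among those lower at 72 h, shares that lie near one another. They describe letters in a fixed window and name no bound factor. Below are the 120 bases before the RefSeq start of 4 members to which the results return, 2 that fell early (ZNF501, ZNF646), 1 that rose late (ZNF23) and 1 that fell late (ZNF500), 5′ to 3′ on the strand of the gene, with CG dinucleotides in capitals. They hold 15, 10, 11 and 14 CG dinucleotides, respectively. The gene spans given below are those of GENCODE v44, and the RefSeq start lies 39 bases inside the span of ZNF501, 848 inside that of ZNF23 and 462 inside that of ZNF500, so their stretches lie partly or wholly within these spans.
ZNF501 (chr3:44729515-44729634, + strand): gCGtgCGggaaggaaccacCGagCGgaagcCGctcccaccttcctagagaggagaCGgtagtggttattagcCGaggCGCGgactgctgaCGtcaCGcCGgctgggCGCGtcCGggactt
ZNF646 (chr16:31074302-31074421, + strand): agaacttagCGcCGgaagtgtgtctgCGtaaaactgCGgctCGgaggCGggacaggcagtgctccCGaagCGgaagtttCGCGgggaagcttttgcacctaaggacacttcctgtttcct
ZNF23 (chr16:71462248-71462367, - strand): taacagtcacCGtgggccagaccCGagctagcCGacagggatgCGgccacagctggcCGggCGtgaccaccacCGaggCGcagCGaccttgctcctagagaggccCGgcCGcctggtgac
ZNF500 (chr16:4767163-4767282, - strand): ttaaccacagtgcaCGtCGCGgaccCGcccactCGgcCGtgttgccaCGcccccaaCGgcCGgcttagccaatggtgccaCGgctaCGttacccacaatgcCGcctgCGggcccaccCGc

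Total counts ran from 8735465 to 22121364 per library, and the shallowest, replicate 2 of toyocamycin at 10 h, stood apart. It had counts for 18654 genes, against 13434 to 16549 in the other 16 libraries, and for 27 of the 28 ZNF genes that fell under the minimum (400 counts in all), against 9 (16 counts) in its partner. The counts of calls at 10 h, scaled by TMM, and the 10 h values of named genes are therefore given with and without it. The labels place replicate 2 of both arms at 2 and 10 h in a second batch and all other libraries in the first. Of 9 colon epithelial markers, KRT20 had at most 3 counts in each DMSO library. The count filter passed 8 of the 9 without the 10 h libraries and all 9 with them. Their summed level was 1736 to 6682 CPM (counts scaled to library size) in DMSO and 531 to 5101 on toyocamycin, and blood, endothelial, liver and fibroblast marker lists summed to at most 10.6 CPM in DMSO and 19 CPM on toyocamycin. In a bulk sample, fewer cells that express a gene and less RNA per cell cannot be told apart.

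The share of each library taken by the 196 members fell early and rose late. At 2 h it was 0.609% and 0.577% in DMSO and 0.442% and 0.388% on toyocamycin. At 10 h it was 0.612% in the DMSO library, beside 0.469% and 0.413%. The 24 h pair stood at 0.601% and 0.855%, and the 48 h pair at 0.515% and 1.20%. By 72 h it was 0.490%, 0.468% and 0.461% in DMSO and 1.17%, 1.20% and 1.22% on toyocamycin. Toyocamycin libraries lay below every DMSO library of their time at 2 and 10 h and above at 24, 48 and 72 h. The median member showed the same order, at 11.6 and 12.3 CPM in DMSO against 7.39 and 7.96 on toyocamycin at 2 h, and at 9.69 to 9.94 against 22.5 to 23.5 CPM at 72 h.

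**Figure D1:**
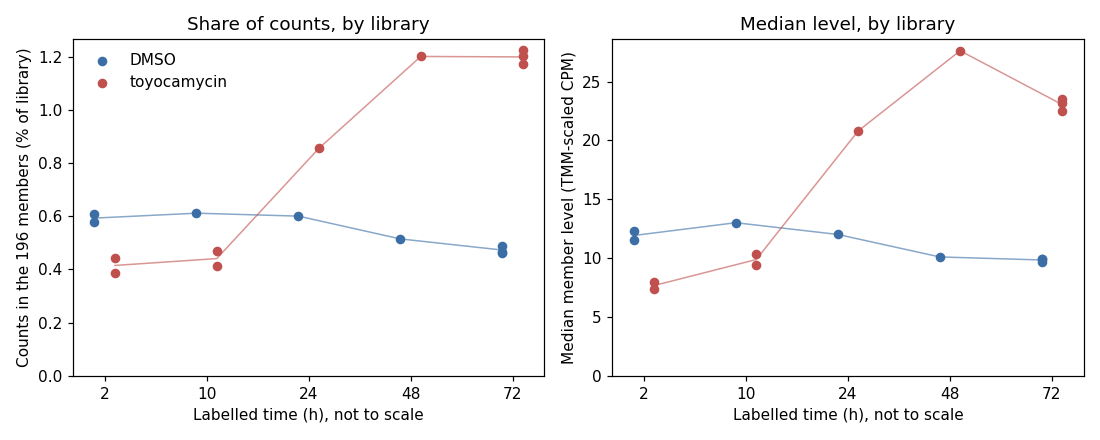
Left, percent of a library's counts that fall in the 196 members. Right, median level of the members in TMM-scaled CPM. Each point is 1 library, lines join the means, and the time axis is not to scale. The toyocamycin points lie under the DMSO points at 2 and 10 h and over them from 24 h, reaching 1.17% to 1.22% of counts at 72 h.

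Fold changes were fitted over all genes with edgeR's quasi-likelihood test, and calls were made where the p-value, adjusted by Benjamini-Hochberg, was under 0.1. Of the 196 members, 193 passed the filter on low counts in the fit without 10 h. The 3 that did not were ZNF287, ZNF454 and ZNF660. Of the 193, 190 reached the level the filter asks for in a DMSO library, and ZNF396, ZNF474 and ZNF750 did so on toyocamycin only.

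After 2 h of toyocamycin, 79 of the 193 tested members were lower and 0 were higher, while 8.42% of all 14491 genes tested were lower and 0.518% higher. At an unadjusted p under 0.05, 112 members were lower and 1 was higher, beside 1830 and 347 of all 14491 genes. DESeq2's test also called 0 members higher. The members' median log2 fold change was -0.62, against 0.02 over all genes tested. The arms did not overlap for 121 members that were lower and 11 that were higher, where 20.3% and 16.7% of all genes were. Scaling to mitochondrially encoded transcripts left 12 members lower and a median of -0.68. Calls were thus lost although the median fold change was no smaller. With TMM scaling the 13 mitochondrial transcripts had a median log2 fold change of -0.097 at 2 h, and 0 were called. With the replicate number, which is the batch at this time, as a block, 92 were lower and 1 higher.

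ZNF501, at chr3:44729596-44737083 on GRCh38, had the largest early fall of the members with an average of at least 4 CPM. It was at 4.96 and 6.22 CPM in DMSO and at 0.456 and 0.650 CPM on toyocamycin, a log2 fold change of -3.34 (SE 0.33, edgeR adjusted p = 2.1e-05). The arms were widely apart. It has 9 fingers and neither a KRAB nor a SCAN domain. ZNF646, a protein of 31 fingers at chr16:31074422-31084196, was at 34.8 and 32.2 CPM in DMSO and at 7.42 and 7.86 on toyocamycin (log2 -2.13, SE 0.18, adjusted p = 1.0e-05). PRSS53 overlaps it on the other strand, and without a stated strand setting their reads cannot be told apart. ZNF200, at chr16:3222325-3236221, was at 12.4 and 12.3 CPM in DMSO and at 3.02 and 2.71 CPM on toyocamycin (log2 -2.10, SE 0.18, adjusted p = 1.0e-05). The pairs of replicates of this gene lay closer to each other than to any library of the other arm. ZNF658, a KRAB gene with a near-identical pseudogene copy that makes its count uncertain, fell by 2.10 on the log2 scale, from 2.65 and 4.63 to 1.08 and 0.542 CPM. ZNF319, ZNF322, ZNF624, ZNF786, ZNF623 and ZNF436 completed the 10 largest falls, with log2 fold changes of -2.03 to -1.91. In all 10, both toyocamycin libraries lay below both DMSO libraries, as the choice of named genes required. Mitochondrial scaling kept the direction of these 10 and lost the calls of ZNF658 and ZNF624.

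By domain, 33 of 76 tested KRAB members, 6 of 9 SCAN members, 2 of 8 with both and 38 of 100 with neither were lower at 2 h. Their median log2 fold changes were -0.77, -1.07, -0.51 and -0.52. ZNF genes on chromosome 19 gave 51 lower and 0 higher of 128, with a median of -0.74. Split by exon length, the 64 shortest members held 32 that were lower, the 64 in the middle 23 and the 65 longest 24. Across the 193 members the 2 h fold change had a Pearson correlation of 0.20 with exon length and -0.20 with the number of fingers, as a description over genes that share the same libraries.

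**Figure D2:**
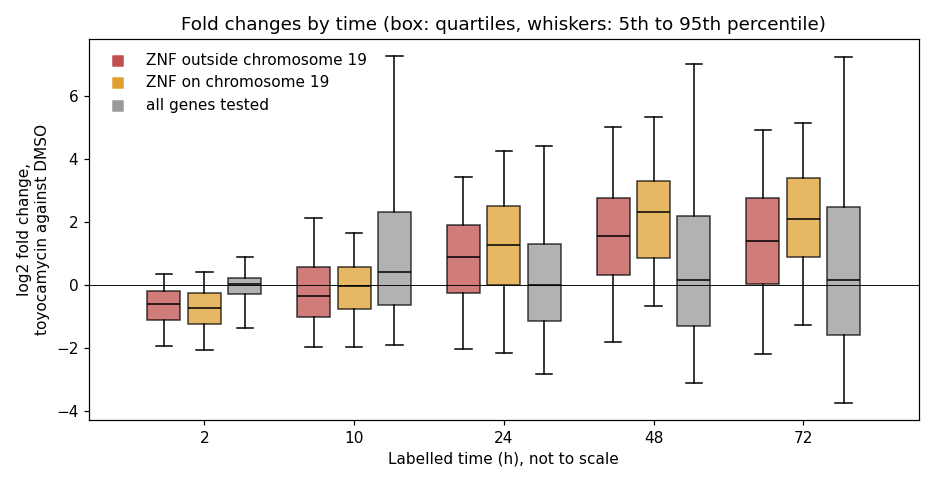
Log2 fold change of toyocamycin against DMSO (vertical axis) at each labelled time for ZNF genes outside chromosome 19, ZNF genes on it and all genes tested; lines in the boxes are medians, boxes quartiles and whiskers the 5th to 95th percentiles over genes. The medians of the ZNF genes outside chromosome 19 run from -0.62 at 2 h and -0.35 at 10 h to 0.89, 1.55 and 1.39.

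At 10 h the members were mixed. Of 195 tested, 70 were lower and 34 higher, against 24.4% and 20.4% of all 16521 genes tested, and the members' median was -0.35 where that of all genes was 0.42. Scaling by library size alone gave 96 lower and 13 higher, and mitochondrial scaling 97 lower and 0 higher. Leaving out replicate 2 of toyocamycin gave 71 lower and 37 higher, with a median of -0.27, and leaving out replicate 1 gave 75 and 32. The values of all genes are given with that replicate 2 only. They cover more genes than the 14491 of the fit without 10 h, and no minimum of DMSO counts was set on them as on the members. The members and all genes are thus not compared on equal terms at 10 h. The single DMSO library used comes from the second batch. A count column headed as another DMSO replicate of 10 h matched no labelled sample and was left out. ZNF646 was still low, at 9.21 and 10.7 CPM against 38.2 CPM in DMSO (log2 -1.94, SE 0.24, adjusted p = 1.5e-05), and at -2.05 without replicate 2 of toyocamycin. ZNF501, at 1.86 and 3.87 CPM against 6.37, had a log2 fold change of -1.20 (SE 0.38, adjusted p = 0.020). It was -1.77 without replicate 2 of toyocamycin, and without replicate 1 it was -0.72 and no longer called (adjusted p = 0.13). ZNF26, a KRAB gene at chr12:132986365-133032952, was already up, at 23.4 and 17.6 CPM against 4.01 (log2 2.36, SE 0.27, adjusted p = 1.0e-05, and log2 2.55 without replicate 2). ZNF217, an oncoprotein of the 20q13 region that binds the CtBP and LSD1 corepressors, had risen to 132 and 98.5 CPM against 46.6 (log2 1.31, SE 0.25, adjusted p = 0.00080, and log2 1.51 without replicate 2). Mitochondrial scaling ended the 10 h calls of ZNF26 (log2 1.26) and ZNF217 (0.21).

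At 24 and 48 h, with 1 library per arm, calls rest on the spread borrowed from the other times. At 24 h, 32 members were lower and 106 higher of 193, against 32% and 30.7% of all genes. The members' median was 0.89 with TMM scaling but -0.12 with library size alone (68 lower, 59 higher) and -1.38 with mitochondrial scaling (89 lower, 5 higher). At 48 h, 28 were lower and 127 higher, against 35.5% and 39.2% of all genes, and the median of 1.55 turned to -0.30 under mitochondrial scaling (52 lower, 25 higher). Relative to the median of all genes, which moves with the scaling, the members' median was higher by 0.78 to 0.96 at 24 h and by 1.34 to 1.39 at 48 h under all 4 scalings.

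At 72 h, 133 of 193 members were higher and 38 lower, while 47% of all genes were higher and 41.9% lower. The 3 members that passed the filter on toyocamycin only are among those higher, which leaves 130 higher and 38 lower of the other 190. The shares of all genes were not limited in this way. The members' median log2 fold change was 1.39, against 0.18 over all genes, and stayed above 0 under the 4 scalings (0.30 to 1.72). Mitochondrial scaling left 77 higher and 56 lower. Relative to the median of all genes the members were higher by 1.19 to 1.22. Leaving out any 1 library of that time gave 128 to 132 higher and 35 to 39 lower. The arms did not overlap for 131 tested members that were higher and 38 that were lower, where 45.8% and 41.8% of all genes were.

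The 8 largest late rises began from different DMSO levels at 72 h, from under 1 CPM for ZNF843 to 9.02 to 14.1 CPM for ZNF721. They were ranked among members with an average of at least 4 CPM over all libraries, which ZNF596, ZNF23, ZNF843, ZNF34 and ZNF658 reach through their toyocamycin libraries. ZNF596, a KRAB gene of 11 fingers at chr8:232137-264703, was at 0.595, 0.604 and 0.858 CPM in DMSO and at 274, 356 and 296 CPM on toyocamycin, a log2 fold change of 8.82 (SE 0.23, edgeR adjusted p = 2.7e-13). ZNF23, a KRAB gene of 16 fingers at chr16:71447597-71463095, was at 0.595, 1.11 and 0.515 CPM in DMSO and at 134, 132 and 121 CPM on toyocamycin (log2 7.47, SE 0.27, adjusted p = 2.0e-12). No toyocamycin library of these genes came near a DMSO library. ZNF79, at chr9:127424374-127445372, started higher, at 5.85, 6.04 and 5.02 CPM, and reached 372, 364 and 353 CPM (log2 6.04, SE 0.19, adjusted p = 6.4e-13). Both ZNF596 and ZNF23 lay between their DMSO and 72 h levels at 24 h (19 and 19.6 CPM) and at 48 h (76.1 and 63.9 CPM). ZNF843, ZNF34, ZNF26, ZNF721 and ZNF658 were the next, with log2 fold changes of 6.95, 6.35, 5.93, 4.98 and 4.89. Of the 8, ZNF596, ZNF23, ZNF34, ZNF26 and ZNF658 carry KRAB.

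**Figure D3:**
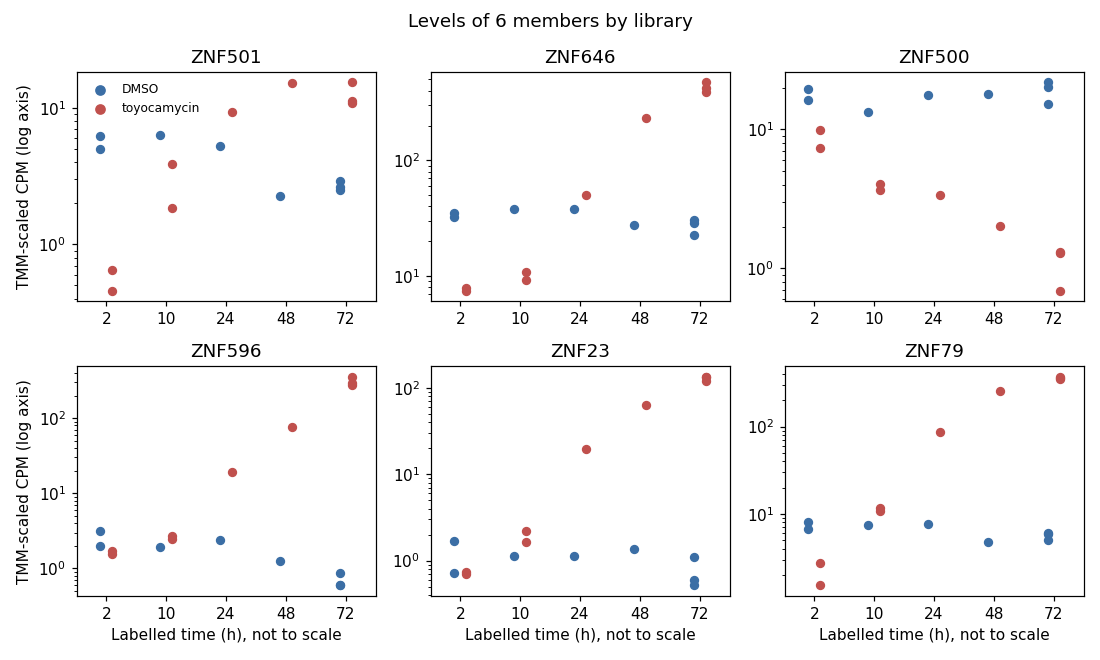
Levels of ZNF501, ZNF646, ZNF500, ZNF596, ZNF23 and ZNF79 in TMM-scaled CPM (log axis, a scale per panel) against labelled time (not to scale), 1 point per library. ZNF501, ZNF646 and ZNF79 lie under DMSO at 2 h and over it at 72 h, ZNF596 and ZNF23 rise from 24 h, and ZNF500 lies lower at each later time.

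The members that fell late were fewer. ZNF704, a protein with 1 recognized finger at chr8:80628451-80874781, was at 20.5, 18.5 and 19.7 CPM in DMSO and at 0.983, 0.649 and 0.608 CPM on toyocamycin (log2 -4.68, SE 0.23, adjusted p = 3.3e-11). At 2 h its libraries overlapped, at 30.5 and 37.4 CPM in DMSO and 31.8 and 28.3 on toyocamycin. ZNF500, at chr16:4748239-4767624, in which the pattern search found a SCAN domain, was at 21.8, 20.1 and 15.2 CPM in DMSO and at 0.688, 1.30 and 1.30 CPM on toyocamycin (log2 -4.06, SE 0.27, adjusted p = 1.0e-09). It was lower already at 2 h, at 9.82 and 7.31 CPM against 19.6 and 16.3 (log2 -1.07, SE 0.24, adjusted p = 0.011), a call lost under mitochondrial scaling and without replicate 2 of toyocamycin (log2 -0.88, adjusted p = 0.14). DNAAF8 overlaps ZNF500 on the other strand. ZNF488, a repressor known from oligodendrocyte differentiation, fell by 3.21 on the log2 scale, and ZNF641, ZNF48, ZNF76, ZNF341 and ZNF771 by 3.06 to 2.17. ZNF76 is a paralog of the activator ZNF143, and ZNF341 drives transcription of STAT3. In all 8, every toyocamycin library lay below every DMSO library of 72 h, again as required. In total, 41 members are overlapped by a protein-coding gene on the other strand, ZNF48, ZNF771 and ZNF664 among them.

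By domain, 57 of 76 KRAB members were higher and 8 lower at 72 h (median 1.57), 7 and 1 of 9 SCAN members (0.77), 5 and 2 of 8 with both (2.34), and 64 and 27 of 100 with neither (1.32). On chromosome 19, 106 of 128 were higher and 9 lower, with a median of 2.09. Split by DMSO level, the 62 lowest members had a median of 2.22, the 65 in the middle 1.07 and the 66 highest 1.37. That level includes the 72 h DMSO libraries against which the fold change is taken. A low level thus goes with a higher fold change by construction, and the split is a description only.

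The effect at 72 h minus the effect at 2 h, tested as an interaction between libraries that share no sample, was higher for 135 members and lower for 27, against 38% and 38.1% of all genes tested. Its median was 2.12 over the members and 0.24 over all genes. Of the 79 members lower at 2 h, 63 were higher, 12 lower and 4 not called at 72 h. Over all genes, 739 of the 1220 lower at 2 h were higher at 72 h, or 60.6%, beside 79.7% of these members and 84.3% of those on chromosome 19. ZNF646 went from -2.13 to 4.01, an interaction of 6.15 (SE 0.24, adjusted p = 4.2e-11), and its toyocamycin libraries rose from 7.42 and 7.86 CPM at 2 h to 391, 473 and 425 CPM at 72 h. ZNF501 went from -3.34 to 2.25 (interaction 5.60, SE 0.39, adjusted p = 5.1e-09), with 10.8 to 15.4 CPM at 72 h. The 2 fold changes hardly went together across the 193 members (Pearson -0.09), whereas those of 48 and 72 h did (0.87), both as descriptions over genes.

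**Figure D4:**
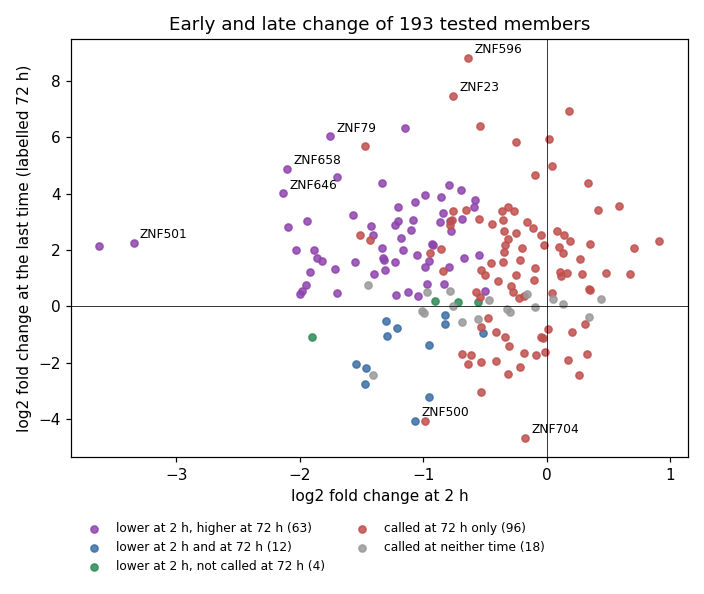
Log2 fold change at 2 h (horizontal) and at 72 h (vertical) of the 193 tested members, 1 point per gene, colored by the calls at the 2 times. The 63 members lower at 2 h and higher at 72 h fill the upper left, and 12 lie at the lower left.

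Several members are known for work other than binding promoters. Of 6 tested members that act on RNA or the ribosome, 1 was lower at 2 h, beside 40.9% of all tested members and 8.42% of all genes tested. A group of 6 is too small to be set against these shares. ZNF622, a maturation factor of the large ribosomal subunit, was the one called, at 25 and 29 CPM against 51.8 and 52.5 (log2 -0.95, SE 0.14, adjusted p = 0.00061). Mitochondrial scaling lost this call (log2 -1.11, adjusted p = 0.84). At 72 h it was higher, at 143, 138 and 126 against 44.2 to 46.5 CPM (log2 1.61), though mitochondrial scaling lost that call too (log2 0.53). ZNF598, the ubiquitin ligase that recognizes collided ribosomes, was higher at 72 h (log2 1.17, and 0.04 with the call lost under mitochondrial scaling) and ZNF106, an RNA-binding protein, lower (log2 -1.75). The double-stranded RNA binder ZNF346 was called higher at 72 h with a log2 fold change of 0.38, and those of ZNF326, of the DBIRD splicing complex, and of ZNF638, a silencing partner of the HUSH complex, were 0.27 and 0.21. The last 2 were not called in the main fit, and all 3 change sign with library size alone or mitochondrial scaling. ZNF326 and ZNF638 were called higher with DESeq2 size factors and lower with those 2 scalings, so their direction depends on the scaling. ZNF207 (BuGZ), which loads BUB3 on kinetochores, overlapped between arms at 2 h and rose at 72 h from 66.9 to 80.8 CPM in DMSO to 169 to 191 CPM (log2 1.34, SE 0.13, adjusted p = 1.2e-07), a call lost under mitochondrial scaling (log2 0.28). ZNF592 and ZNF687, partners of ZMYND8 in one complex, were lower at both times, but mitochondrial scaling ended both 2 h calls. That of ZNF592 was also lost without replicate 1 of DMSO (log2 -0.47, adjusted p = 0.16) and without replicate 2 of toyocamycin (log2 -0.42, adjusted p = 0.32). ZNF687 was at 31.2 and 30.1 CPM on toyocamycin at 2 h against 74.8 and 75.3 in DMSO (log2 -1.29), and its interaction of 0.23 was not called (adjusted p = 0.38) and turned to -0.32 with library size alone and -0.76 with mitochondrial scaling.

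Of 10 members listed for roles in chromatin or transcription, 5 were lower and 0 higher at 2 h (ZNF24, ZNF148, ZNF202, ZNF217 and ZNF281), and 8 were higher and 2 lower at 72 h. Among all tested members 40.9% were lower at 2 h, and 68.9% were higher and 19.7% lower at 72 h. Among all genes tested these shares were 8.42%, 47% and 41.9%. Mitochondrial scaling ended all 5 of the 2 h calls. That of ZNF202 was also lost without any 1 of DMSO replicate 1 and the 2 toyocamycin libraries (log2 -0.60 to -0.48), and that of ZNF148 without DMSO replicate 2 (log2 -0.31) or toyocamycin replicate 1 (log2 -0.56). ZNF24, a SCAN repressor, was at 54.0, 50.9 and 65.3 CPM in DMSO and 749, 587 and 578 CPM on toyocamycin at 72 h (log2 3.52, SE 0.18, adjusted p = 5.6e-11). At 2 h it had been lower, at 32.9 and 40.4 against 69.1 and 99.9 CPM (log2 -1.20). ZNF202, a KRAB and SCAN repressor of lipid metabolism genes, went from 9.66 to 12.6 CPM in DMSO to 145 to 164 CPM (log2 3.77, SE 0.14, adjusted p = 3.4e-12). ZNF143, which marks promoters and chromatin loops, had a log2 fold change of 2.19, ZNF281 of 2.86, ZNF462 of 2.59 and ZNF703 of 1.88, all higher at 72 h. Mitochondrial scaling ended the 72 h calls of ZNF703 (log2 0.72), ZNF217 (0.59) and ZNF148 (0.33). ZNF335, part of histone H3 methyltransferase complexes, and ZNF609 were the 2 that fell, by 1.74 and 1.08 on the log2 scale.

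**Figure D5:**
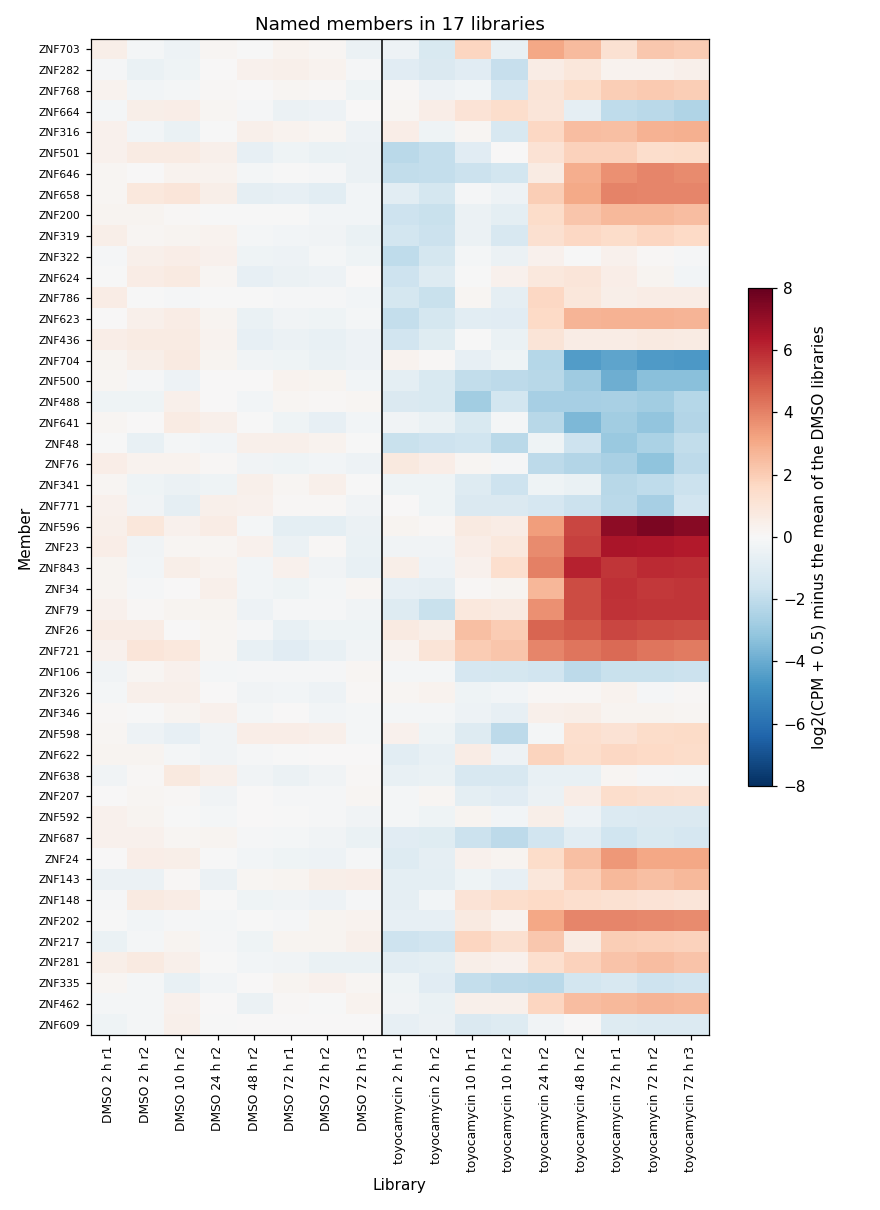
Level of each named member in every library, as log2(CPM + 0.5) minus the mean of the 8 DMSO libraries; red is higher and blue lower, and r gives the replicate number. The early fallers are blue in both 2 h toyocamycin libraries, and ZNF596 to ZNF721 are red from 24 h.

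Neighboring members did not all move alike. Runs of at least 4 members with gaps of at most 200000 bases numbered 7 and held 45 members. For comparison, 40.9% of all tested members were lower at 2 h, and 68.9% were higher and 19.7% lower at 72 h. Over all genes tested these shares were 8.42%, 47% and 41.9%. The runs are too short to be set apart from these shares, and their counts are a description only. In the run of 8 at chr7:149069641-149497817, ZNF786 to ZNF746, 7 were lower at 2 h and 7 higher at 72 h, and ZNF282 at 2 h was lower while its 72 h log2 fold change was 0.14 (adjusted p = 0.41). The 2 h call of ZNF282 was lost under mitochondrial scaling, without replicate 1 of DMSO (log2 -0.51, adjusted p = 0.19) and without replicate 2 of toyocamycin (log2 -0.62, adjusted p = 0.22). In the run of 6 at chr16:3112560-3443504, which holds ZNF200, all 6 were higher at 72 h (log2 0.41 to 4.39) and 3 were lower at 2 h. The run of 9 at chr16:30378106-30787205 split, with 5 higher (ZNF768 at 2.05 among them) and 4 lower (ZNF48 at -2.75) at 72 h. In the run of 5 at chr7:64519878-65006684, ZNF680 to ZNF117, 0 were higher at 72 h and 2 were lower, ZNF680 at -2.05 and ZNF107 at -0.52. The run of 6 at chr3:44431705-44737083 held ZNF501 and the untested ZNF660. It had 2 lower at 2 h, and 3 higher and 2 lower at 72 h. At chr8:144720907-144950888, a run of 6 had 2 lower at 2 h, and 5 higher and 1 lower at 72 h. At chr1:246945547-247331867, a run of 5 had 2 lower at 2 h, and 3 higher and 0 lower at 72 h.

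The genes through which KRAB proteins silence were also followed, in a list of 32. At 2 h, 2 were lower (GATAD2B and ATF7IP) and 0 higher. At 72 h, 16 were lower and 14 higher. These are 6.25%, 50% and 43.8% of the list, near the 8.42%, 41.9% and 47% of all genes tested. TRIM28 was at 766 ± 117 CPM in DMSO and 335 ± 49.7 CPM on toyocamycin at 72 h (SD, n = 3, log2 -1.16, edgeR adjusted p = 7.7e-05), and SETDB1 at 22.9 ± 2.76 and 29.3 ± 5.47 CPM (log2 0.38, adjusted p = 0.033). Among the genes that fell, DNMT1, the maintenance DNA methyltransferase, had a log2 fold change of -4.06, its partner UHRF1 of -3.75, DNMT3B of -6.42 and HDAC1 of -3.56. The values of this list are given with TMM scaling only. The 72 h median of all genes was 0.18 with it, -0.42 with library size alone and -0.89 with mitochondrial scaling. The direction of a change as small as that of SETDB1 may therefore depend on the scaling.

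Culture without drug also moved the members. Between DMSO at 2 h and at 72 h, 65 of 193 were lower and 8 higher at 72 h, against 11.4% and 10.2% of all genes, with a median of -0.34. The 72 h libraries are all of the first batch. Against the first-batch 2 h library alone, 35 were lower and 3 higher, and under mitochondrial scaling 0 were lower, 3 were higher and the median was 0.35. ZNF596 fell most among the named members, from 2.02 and 3.14 to 0.595, 0.604 and 0.858 CPM (log2 -1.88, SE 0.27, adjusted p = 0.00033), a call that mitochondrial scaling ended (log2 -1.12). On chromosome 19, 82 of 128 ZNF genes were lower and 5 higher, with a median of -0.91. The effect of toyocamycin at each time was taken against DMSO of the same time, so this drift enters the 72 h fold changes through their controls.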

How the data were processed

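PolyA RNA of 17 YB5 cultures was sequenced, and per the labels reads were aligned to GRCh38 with STAR 2.7.5a. The authors deposited raw counts per gene as whole numbers, from STAR's gene counting. Its strand setting is not given in the sources used here. 1 column, headed as replicate 1 of DMSO at 10 h, matched no labelled sample and was not used. A table of the authors' own fold changes and p-values was not used either. Gene symbols, positions and exon lengths came from GENCODE v44 (19080 of 19141 genes matched). KRAB (at least 16 of 26 conserved positions), SCAN and C2H2 fingers were found in translated canonical transcripts in place of the RefSeq proteins first planned.

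Counts were fitted with edgeR 4.0.16 in R 4.3.3 (filterByExpr, TMM, glmQLFit in its legacy form, glmQLFTest, Benjamini-Hochberg adjusted p under 0.1 over all genes). 14 libraries gave 2, 24, 48 and 72 h, and all 17 gave 10 h. The code was tested on simulated data. Levels are TMM-scaled CPM, mean ± SD. Named members were the 5 highest per length, the largest called changes at 2 h (10 lower) and at 72 h (8 each way) without overlap between arms and at a mean log2 CPM of 2 or more, the 4 largest changes of effect each way, and members with fixed roles. Members, lists and tests were chosen with earlier results of these data known. At 2 h the replicate number is the batch and same-numbered deviations correlated at 0.31. At 72 h they correlated at -0.11, 0.04 and -0.09, so the numbers do not pair libraries there. Alternatives were other scalings, no filter, DESeq2 1.42.0, edgeR's newer form, an adjusted p under 0.05, a batch term, a replicate block and each library left out.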

Additional observations from a re-analysis of the deposited data

Results flagged for a closer look

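The effect of toyocamycin differed between 2 h and 72 h, by edgeR's test of the interaction (adjusted p under 0.1), in 135 members whose log2 fold change was higher at 72 h and in 27 whose fold change was lower. The largest increases were 9.46 for ZNF596, 8.23 for ZNF23, 7.79 for ZNF79 and 7.50 for ZNF34 on the log2 scale. The largest decreases were -4.50 for ZNF704, -2.99 for ZNF500, -2.69 for ZNF76 and -2.53 for ZNF641. These 8 were named for the size of this difference.

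Some ZNF genes under the count minimum, and so not among the members compared above, had counts on toyocamycin that exceeded those of every DMSO library. Such gains were not limited to ZNF genes. Toyocamycin libraries of 48 and 72 h had counts for 15996 to 16549 genes in all, and DMSO libraries for 13434 to 14533. ZNF502 (chr3:44712643-44723831), a neighbor of ZNF501, had 1 count in all 8 DMSO libraries together and 131, 124 and 159 counts at 72 h, so the lowest was 124. It had 10 counts at 24 h and 113 at 48 h. Among the others the lowest 72 h count was 9 for ZNF891, 5 for ZNF268, 5 for ZNF10, 4 for ZNF141 and 4 for ZNF892. ZNF891, ZNF10 and ZNF268 lie together on chromosome 12 beside the members ZNF26, ZNF84 and ZNF140, which had log2 fold changes of 5.93, 3.95 and 2.05 at 72 h. In replicate 2 of toyocamycin at 10 h, the library that stood apart, ZNF268 had 30 counts and ZNF891 had 29.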

How the results depend on the processing

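Numbers below are members called in place of the main count, which stands first. Mitochondrial scaling moved most: lower at 2 h 79 to 12, higher at 10 h 34 to 0, lower and higher at 24 h 32 to 89 and 106 to 5, at 48 h 28 to 52 and 127 to 25, higher at 72 h 133 to 77, and DMSO drift 65 to 0 lower and 8 to 3 higher. Its medians turned to -1.38 at 24 h, -0.30 at 48 h and 0.35 for the DMSO drift. The 13 mitochondrial transcripts moved themselves. With TMM scaling their median log2 fold changes were 2.22 at 24 h, 1.75 at 48 h, 1.10 at 72 h and -1.06 in the DMSO drift. At 2 h theirs was -0.097. Library size alone gave 13 higher at 10 h, 68 lower and 59 higher at 24 h with a median of -0.12, and 4 higher in the DMSO drift. DESeq2's test gave 53 higher at 10 h and 16 lower at 48 h, DESeq2 size factors 1 higher at 2 h, an adjusted p under 0.05 22 higher at 10 h and 5 in the DMSO drift, and the batch term 4 there. The replicate block gave 1 member higher at 2 h instead of 0 and moved no other count by over 1.5 times. Leaving out each library in turn gave 0 to 1 higher at 2 h, 35 to 68 lower and 3 to 9 higher in the DMSO drift, the lowest of both without DMSO 2 h replicate 2, and no other count left 1.5 times its value. 24 h and 48 h have 1 library per arm and allow no such step. The cause of these shifts was not tested.

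Of 92 values of named members, 22 lost their call and 7 gained one without a change of sign under 1 or more alternatives. In 12 the sign changed under 1 or more, ZNF687's interaction to -0.32 with library size alone and -0.76 with mitochondrial scaling. With library size alone and mitochondrial scaling, the 72 h log2 fold changes were -0.46 and -0.98 for ZNF282, -0.33 and -0.77 for ZNF326, -0.22 and -0.71 for ZNF346 and -0.39 and -0.81 for ZNF638. At 2 h, ZNF316 and ZNF598 were at -0.092 and -0.0242 with mitochondrial scaling and ZNF326 at -0.0030 with library size alone. With 1 library left out, ZNF282 at 72 h ran from -0.0050 to 0.24, and at 2 h ZNF768 ran from -0.46 to 0.073, ZNF664 from -0.10 to 0.51, ZNF316 from -0.42 to 0.46, ZNF106 from -0.27 to 0.13, ZNF326 from -0.21 to 0.36, ZNF598 from -0.22 to 0.48 and ZNF207 from -0.27 to 0.069. Of the values that changed sign, only ZNF346 at 72 h had been called in the main fit. It lost that call with library size alone and mitochondrial scaling. ZNF282, ZNF326 and ZNF638 at 72 h were called in opposite directions by different scalings. They were called higher with DESeq2 size factors (log2 0.46, 0.60 and 0.54). With library size alone and with mitochondrial scaling they were called lower.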
